A study of Caenorhabditis elegans with 4 samples.

Results

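The central part of chromosome III of Caenorhabditis elegans carried 814 of the 9439 ZIM-1 peaks in the series-wide list. Members were the peaks on III whose midpoint lay above base 3000000 and at or below base 10783000, that is, more than 3 Mb from either end of the chromosome, in coordinates of WormBase release WS220. The rule used position alone. The same interval held 415 of the 5552 peaks of ChIP replicate 1 and 250 of the 2887 peaks of ChIP replicate 2.

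The peaks came from chromatin immunoprecipitation and sequencing (ChIP-seq) with a polyclonal antibody against ZIM-1 that was raised in rabbit and affinity purified. There were 2 ZIM-1 ChIP libraries and 2 input libraries of genomic DNA, and the input libraries were not analysed here. All 4 libraries came from the strain fem-2(b245), genotype fem-2(b245)III, so there was no wild-type sample and no sample without ZIM-1. The worms were hermaphrodites at the young adult stage, had a germline and were kept at 20 °C, and extracts were made from whole worms, so germline and somatic chromatin were mixed. Worms were grown in cultures of 400 mL, and all 4 libraries came from material fixed with 1% formaldehyde for 10 min. The labels do not say if each replicate had a culture of its own, so differences between replicates may be technical.

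ZIM-1 is a zinc finger protein that binds meiotic pairing centers, the regions at which homologous chromosomes meet and start synapsis during prophase of the first meiotic division. It is known for the pairing centers of chromosomes II and III, while its relatives ZIM-2, ZIM-3 and HIM-8 serve the other chromosomes. The pairing center of III lies toward the left end of the chromosome, so the interval described here lies outside it. Worm autosomes are usually divided into gene-dense centres, in which meiotic crossovers are rare, and arms in which they are frequent and repeats are common. fem-2 encodes a phosphatase of the sex determination pathway.

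Each peak has a first base, a last base and 1 score. The score is the authors' own, from the peak caller, and the headers do not name its quantity. The scale differed between lists, from 1.30 to 174.44 in the series-wide list and from 50 upward in the replicate lists, where 223 and 222 nuclear peaks were tied at 3100. Scores were therefore read within a list, and positions within a list are given as the percentage of its nuclear peaks that scored lower, with tied peaks at their mean rank. Read depth is unknown. Intervals were computed from numbers of peaks, so counting error is all they cover.

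Central III held fewer ZIM-1 peaks per Mb than either end of the same chromosome. It held 104.6 peaks per Mb in the series-wide list (95% Poisson interval 97.5 to 112.0), against 222.7 per Mb within 3 Mb of the left end (206.1 to 240.2) and 133.3 per Mb in the last 3 Mb on the right (120.6 to 147.0). In replicate 1 the centre had 53.3 peaks per Mb, against 139.7 at the left end and 78.3 at the right end. In replicate 2 the centre had 32.1 peaks per Mb, against 95.7 at the left end and 37.99 at the right end. The order of the 3 regions was therefore the same in each list, although in replicate 2 the interval of the centre, 28.3 to 36.4, overlapped that of the right end, 31.3 to 45.6.

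Set against both ends together, the density of the centre was 0.59 times that of the rest of III in the series-wide list (exact binomial test, two-sided, adjusted p = 2.5e-30 over 3 lists, Benjamini-Hochberg). The ratio was 0.49 in replicate 1 (95% interval 0.43 to 0.55; exact binomial test, adjusted p = 1.9e-30) and 0.48 in replicate 2 (0.41 to 0.56; exact binomial test, adjusted p = 2.7e-20). Peaks cluster and the binomial test takes them as independent, so these p-values are too small. Against the right end alone, a comparison chosen after seeing the data, the series-wide ratio was 0.78 (0.70 to 0.89), and against the left end alone it was 0.47 (0.42 to 0.52). The left end is where the pairing center is known to lie.

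By the same rule of 3 Mb from each end, the centres of the other chromosomes had lower point values in the series-wide list. Chromosome I had 102.0 peaks per Mb in its centre (95.5 to 108.8), which overlapped the interval of III. The centre of IV had 88.6 (83.2 to 94.2), that of II 71.3 (66.0 to 77.0), that of V 69.7 (65.5 to 74.1) and that of X 36.95 (33.6 to 40.6), all below the interval of III. In the replicate 1 list central III did not come first, with 53.3 peaks per Mb against 55.7 in the centre of I and 54.3 in that of IV, and the 3 intervals overlapped. In the replicate 2 list it had 32.1 against 27.8 in the centre of I and 26.2 in that of IV, again with overlapping intervals. III is 1 chromosome, so its place among the centres was not tested. Peaks covered 369.7 kb of central III, or 4.75% of its 7.783 Mb, against 11.5% of the left end, 6.31% of the right end and 4.83% of the centre of I. In replicate 1 peaks covered 4.01% of central III, against 10.9% of the left end and 5.48% of the right end. In replicate 2 they covered 2.54% of central III, against 8.51% of the left end and 2.51% of the right end, so by covered bases the centre was not below the right end there.

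**Figure D1:**
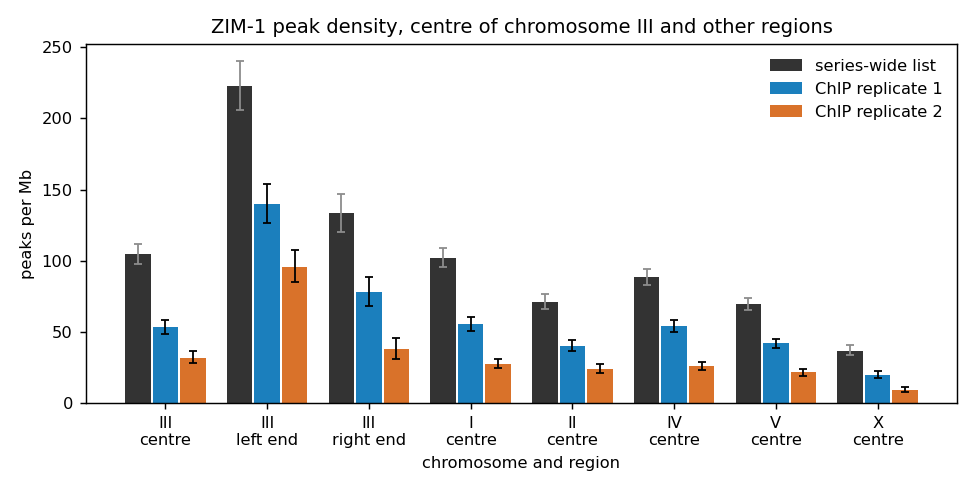
Peaks per Mb (vertical axis) in the centre and both 3 Mb ends of chromosome III and in the centres of the other chromosomes, for the series-wide list and each ChIP replicate; error bars are 95% Poisson intervals that cover counting error only. The centre of III stands below the left end of III in all 3 lists, at 104.6 against 222.7 peaks per Mb in the series-wide list.

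Within the interval the peaks were not evenly spread. The 500 kb next to the left end, from 3 to 3.5 Mb, held 105 members, or 210 per Mb (171.8 to 254.2), against 32 to 63 members in the other 14 full bins, whose mean was 96.9 per Mb. This interval did not overlap that of any other bin of the series-wide list. The same bin held 51 peaks of replicate 1, against 12 to 32 in the other bins, and 34 peaks of replicate 2, against 7 to 31. It was the highest bin in each list. In the replicate lists, however, its 95% interval overlapped those of other bins. In replicate 1 its interval, 75.9 to 134.1 per Mb, met among others that of the bin from 7 to 7.5 Mb, 43.8 to 90.3. In replicate 2 the bin from 7 to 7.5 Mb, with 31 peaks, stood close to it, and these intervals overlapped as well. The sparsest full bin was that from 9 to 9.5 Mb in all 3 lists, with 32 series-wide peaks, 12 peaks of replicate 1 and 7 peaks of replicate 2.

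Without the first 500 kb, a setting added after seeing the data, central III held 709 peaks, or 97.3 per Mb (90.3 to 104.8). The ratio to the rest of III was then 0.55 (0.50 to 0.60). The members nearest to the borders scored 6.67 at the lower border, where the peak was found in replicate 1 alone, and 7.86 at the upper border, where it was found in neither replicate. The first peaks outside scored 6.67 on the left, found in neither, and 2.10 on the right, also met by replicate 1 but not by replicate 2.

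**Figure D2:**
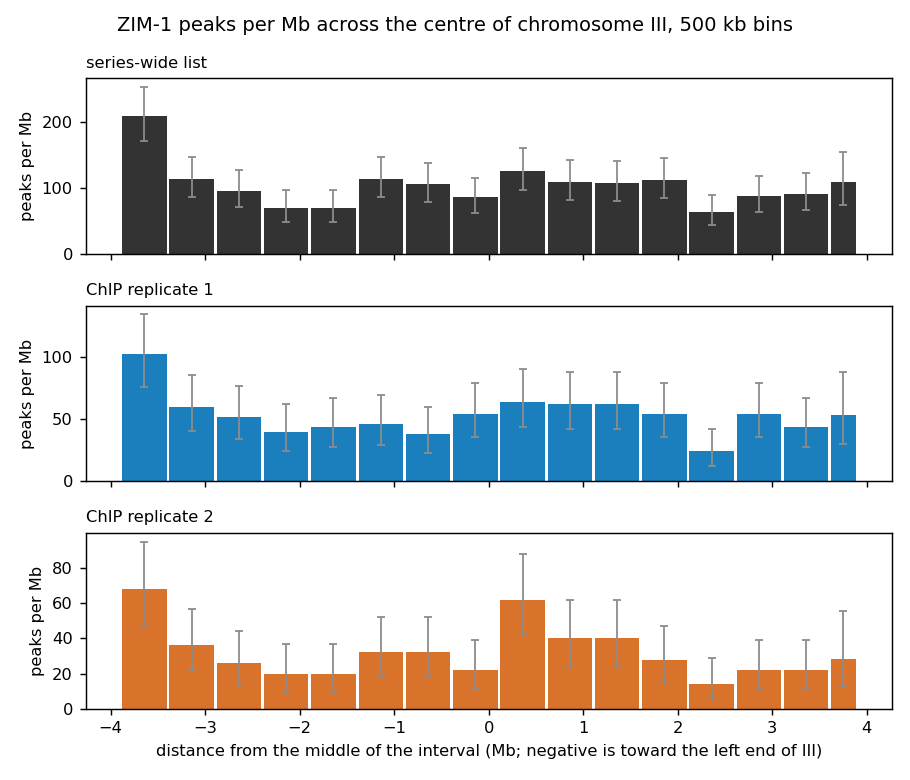
Peaks per Mb (vertical axis) in 500 kb bins across central III against the distance of the bin from the middle of the interval in Mb, for each list; error bars are 95% Poisson intervals, and the last bin is shorter, at 283 kb. The bin nearest the left end of III is the highest in every list, with 210 peaks per Mb in the series-wide list.

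At a scale of 100 kb, 4 of the 78 windows of central III held more peak midpoints than the mean of the chromosome predicts, 13.7 per window (exact Poisson test, one-sided, with Benjamini-Hochberg adjustment over 1005 windows of the nuclear genome). Over all windows 8.76% were called, and 5.13% of the central ones. The called windows began at 3.0 Mb and 7.4 Mb, with 28 peaks each, at 6.1 Mb with 27 and at 3.2 Mb with 25. Their adjusted p-values by the Poisson test were 0.0080, 0.0080, 0.015 and 0.045. The window next in rank, from 5.7 Mb, held 24 peaks and did not pass, with an adjusted p of 0.075 by the same test.

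These calls depended on the list and on the background. In the replicate 1 list 0 of the 78 windows were called (4.68% over the genome), and 1 had an unadjusted p under 0.05. In the replicate 2 list 1 was called (3.58% over the genome), the window from 7.4 Mb, with 19 peaks in replicate 2 and an adjusted p of 4.8e-05 by the Poisson test; replicate 1 had 11 peaks there. Against a negative binomial background with the spread that the windows of III show, none of the central windows was called (0 of 78). The unadjusted p was under 0.05 in 0 of them. With such a background for each chromosome, 0 of the 1005 windows of the nuclear genome were called, so this is not particular to central III. The spread was taken from the windows under test, dense ones included. This setting called no window anywhere, so it cannot decide whether a central window is dense. The variance of the central window counts was 4.46 times their mean, and the counts ran from 0 to 28 with a median of 8.

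The emptiest stretch of the interval ran for 185.9 kb, from 6685778 to 6871672, without any series-wide peak. The window from 6.7 to 6.8 Mb was the only central window with 0 series-wide peaks, and it was also empty in both replicates. The next window, from 6.8 to 6.9 Mb, held 2 series-wide peaks and 0 in each replicate. In the replicate 1 list the longest empty stretch started at nearly the same base, 6685931, and ran for 232.8 kb. In the replicate 2 list the longest one lay elsewhere, from 9747590 to 10139572. Whether reads can be mapped uniquely in these stretches was not tested.

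Most members of the series-wide list stood close to a neighbour. When peaks separated by fewer than 1000 bp were joined into chains, 478 of the 814 members (58.7%) fell in chains of 2 or more, 19 chains held 5 or more peaks, and 336 peaks stood alone. In the replicate lists, which hold fewer and wider peaks, 41.4% of the central peaks of replicate 1 and 30% of those of replicate 2 fell in chains. The share in chains was 67.5% at the left end of III and 59.5% at the right end. In the other centres it was 60.1% on I, 58.5% on IV, 56.3% on V, 53.6% on II and 36.5% on X. Midpoints of neighbouring members lay a median of 2813 bp apart (interquartile range 936 to 12237), against 1730 bp at the left end of III and 2905 bp at the right end. The most midpoints within 10 kb were 11, and 3 sites had that number. At the site from 3859369 to 3869680 replicate 1 had 4 peaks and replicate 2 had 3, scores ran from 2.60 to 78.74, and both replicates marked 5 of the 11 members. At the site from 5779330 to 5789751 each replicate had 3 peaks, scores ran from 3.02 to 68.78, and both replicates marked 2. At the site from 9694696 to 9704468 replicate 1 had 6 peaks and replicate 2 had 4, scores ran from 1.55 to 22.99, and both marked 4.

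The replicate lists shared a minority of the series-wide members. A member was called found in a replicate when it overlapped a peak of that replicate by at least 1 bp. Of the 814 members, 222 were found in both replicates, or 27.3% (95% exact Clopper-Pearson interval 24.2 to 30.5), against 25.9% of all nuclear peaks. Only replicate 1 marked a further 215 (26.4%, against 33.2% of all nuclear peaks) and only replicate 2 marked 41 (5.04%, against 5.32%). The remaining 336 were found in neither (41.3%, against 35.6%). The share found in both was near the background. It was 37.9% at the left end of III (34.2 to 41.7) and 22.0% at the right end (18.0 to 26.4). The interval of the share found in neither, 37.9 to 44.7, lay above the genome-wide value, and the share found in replicate 1 alone, with an interval of 23.4 to 29.6, lay below it. The share found in neither was 30.1% at the left end of III and 39.5% at the right end. In the other centres it was 39.1% on I, 36.7% on II, 35.4% on IV, 33.0% on V and 40.2% on X. For replicate 1 alone it was 25.9% at the left end and 36.0% at the right end. In the other centres that share was 31.7% on I, 28.9% on II, 37.0% on IV, 33.9% on V and 30.9% on X. Peaks are not independent, so these differences were not tested.

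Recurrence followed the score, here and over the nuclear genome. Nuclear peaks found in both replicates had a median score of 40.4, and those found in neither 4.83. The series-wide list may rest on the same reads as the replicate lists, so this relation may be built in. Members found in both replicates had a median series-wide score of 36.8 (interquartile range 17.8 to 84.8) and a median width of 520.5 bp. Members found in neither had a median score of 4.93 (3.52 to 6.33) and a median width of 190.5 bp, those found in replicate 1 alone 7.56 and 316 bp, and those found in replicate 2 alone 13.66 and 375 bp. The replicate peaks are wider than series-wide peaks, with central medians of 509 bp in replicate 1 and 587.5 bp in replicate 2 against 283 bp, so 1 replicate peak can meet several members. In the interval, 40 peaks of replicate 1 and 21 peaks of replicate 2 met 2 or more series-wide peaks, up to 5 and 3 of them.

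The nuclear series-wide peaks were divided at their quartiles of score into 4 classes, and the members fell into these almost evenly, with 197, 224, 201 and 192 from the lowest class to the highest. In the top class, at scores of 17.49 and above, 167 of the 192 members were found in both replicates, or 87.0% (81.4 to 91.4), against 85.3% of the other nuclear peaks of that class. None of the 192 was missing from both (0%, with an exact interval up to 1.90%), against 17 of 2168 elsewhere (0.784%). That interval includes the share elsewhere. In the next class down, 22.4% of the members were found in both (16.8 to 28.8), against 14.5% elsewhere (13.1 to 16.1). In the lower classes the shares were 3.13% and 1.52%, from 7 and 3 members, against 1.65% and 0.978% elsewhere. There, 61.2% of the members in the upper of these classes and 75.1% in the lowest were found in neither replicate, against 50.5% and 68.3% elsewhere.

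**Figure D3:**
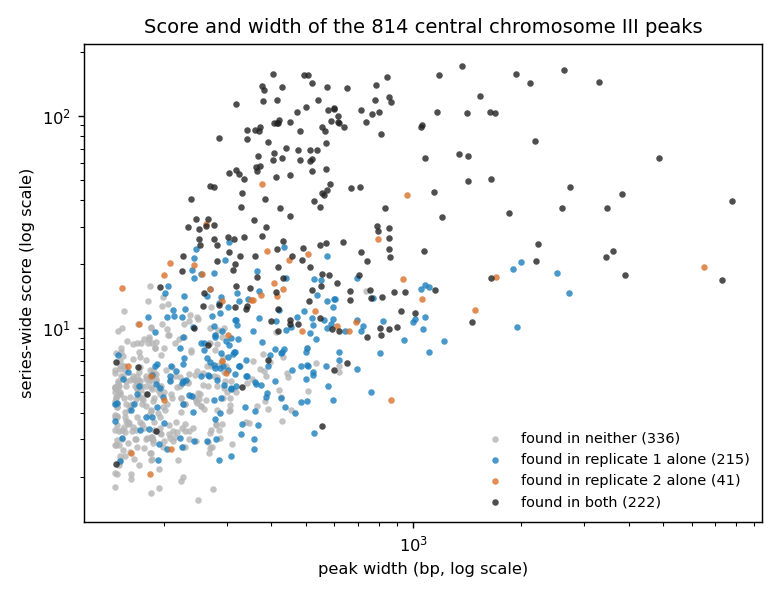
Series-wide score (vertical axis, log scale) against peak width in bp (horizontal axis, log scale) for the 814 members, coloured by the replicates in which they were found. The 336 members found in neither replicate lie at scores of 15.82 or less. Wider members tend to score higher (Spearman rho 0.64), although the widest member, at 7768 bp, scores 39.85.

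Seen from the replicates, replicate 1 had an overlapping peak for 213 of the 250 central peaks of replicate 2, or 85.2% (80.2 to 89.4), against 84.2% of all replicate 2 nuclear peaks. In the other direction replicate 2 had such a peak for 210 of the 415 central peaks of replicate 1, or 50.6% (45.7 to 55.5), against 43.9% over the genome. That share was 59.2% at the left end of III and 40% at the right end. Nearly every replicate peak of the interval was in the series-wide list, 402 of 415 (96.9%, against 95.3% over the genome) for replicate 1 and 248 of 250 (99.2%, against 98.3%) for replicate 2. The strongest replicate peaks that met no series-wide peak lay at a single site, from 3346700 to 3347053 in replicate 1 with a score of 259.35, and from 3346679 to 3347063 in replicate 2 with a score of 114.43. Both replicate lists marked that site although the series-wide list did not.

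The strongest members of central III were found in both replicates, as were all nuclear peaks of such scores. None of the members reached the top of the series-wide list. The highest series-wide score, 174.44, was shared by 78 nuclear peaks (0.827%), of which 0 were members. At the genome-wide share 6.73 of the 814 would be expected, and a count of 0 allows a share of up to 0.369%, taken as 3 counts of the 814. That bound takes peaks as independent, although they cluster. The top score was reached by 5 of 668 peaks at the left end of III and 0 of 400 at the right end. In the other centres it was reached by 3 of 925 peaks on I, 2 of 662 on II and 14 of 1018 on IV. On V it was 17 of 1040, and on X 4 of 433. The highest member scored 171.83. There were 92 nuclear peaks with a higher score, 9 of them on III. Scores over 100 were seen in 37 members (4.55%, against 5.09% of all nuclear peaks), with a median width of 714 bp. All 37 were found in both replicates, which is the background. No nuclear peak that lacked a replicate scored above 68.12.

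The first member by score spanned 9533467 to 9534831, a width of 1365 bp. It scored 171.83 in the series-wide list, 3100 in replicate 1 and 3100 in replicate 2, where the replicate peaks covered almost the same bases. The next, from 8440199 to 8442842, scored 164.11 and was also at 3100 in both replicates. The fourth, from 8335001 to 8336939 with a score of 157.28, and the ninth, from 3894499 to 3897799 with a score of 143.57, were at 3100 in both replicates as well. These 4 were the widest of the 10 highest members, between 1365 and 3301 bp.

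The other 6 of the 10 were narrower, at 405 to 1178 bp, and stayed below the tied score in both replicates. The member from 10270574 to 10270978, only 405 bp wide, scored 157.64, with 2193.60 in replicate 1 and 1634.80 in replicate 2. The member from 8129483 to 8130660 scored 156.17, with 1376.13 in replicate 1 and 1568.89 in replicate 2. The member from 3695293 to 3695799 also scored 156.17, with 2388.61 in replicate 1 and 1720.91 in replicate 2. In all 3 the replicates placed the site high in their lists, above at least 88.2% of their peaks.

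The members from 4756850 to 4757344, from 3459988 to 3460828 and from 10706891 to 10707411 completed the 10. The first of them scored 154.77 in the series-wide list, 1609.31 in replicate 1 and 1330.32 in replicate 2. The second scored 151.41, with 2178.86 and 1469.85 in replicates 1 and 2. The third scored 142.13, with 1520.78 and 893.07. Across the 10, the lowest place in a replicate list was that of the last one in replicate 2, above 81.2% of the peaks of that list. The 10 sites were spread over most of the interval, from 3459988 to 10707411.

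Wider members tended to score higher, although most of the widest did not reach the highest scores. Over all members width and score had a Spearman rho of 0.64 (814 peaks of 1 list, given as a description), against 0.61 over all nuclear peaks. Among the 20 members wider than 2000 bp (2.46%, against 2.52% of nuclear peaks), 15 scored below 50 and 3 scored above 100, with a median of 30.75, and 18 were in the top of the 4 score classes. Of the 20, 16 were found in both replicates. The same counts over the 238 nuclear peaks wider than 2000 bp are not given here, so these traits cannot be called particular to central III. The other 794 members had a median score of 7.21.

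The widest member spanned 7768 bp, from 6566700 to 6574467. It scored 39.85 in the series-wide list, above 86.8% of nuclear peaks, and it was matched almost base for base by a peak of 7811 bp in replicate 1 with a score of 3100 and by a peak of 7659 bp in replicate 2 with a score of 2100.29. A further wide member, from 5939100 to 5943969, scored 63.15, with 3100 in replicate 1 and 1328.50 in replicate 2. The second of these sites stood above 91.2% of the series-wide list, 97.8% of the replicate 1 list and 86.5% of the replicate 2 list.

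The second-widest and third-widest members lay side by side with others in the longest chain of the interval. This chain ran from 7405297 to 7442757, a span of 37461 bp, and consisted of 16 members that covered 93.1% of it. Their scores ran from 2.38 to 22.99 with a median of 16.9, 13 of the 16 scored above the nuclear median of 7.86, and no gap in the chain was longer than 291 bp. The widest of them spanned 7300 bp, from 7430961 to 7438260, with a score of 16.79, and 6490 bp, from 7415460 to 7421949, with a score of 19.48. The chain made up 9.44% of all bases covered by members, and 8 of the 20 members wider than 2000 bp lay in the window from 7.4 to 7.5 Mb that contains it, of which 44.7% was covered.

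The replicates drew this chain differently. Replicate 1 had 5 peaks there that covered 66.6% of the span, with scores from 710.55 to 2983.95, above 84.5 to 95.6% of its list. Replicate 2 had 15 peaks that covered 41.9% of it, with scores from 50.74 to 364.96, above 0.485 to 63.1% of its list. In the middle of the chain replicate 1 had an empty stretch of 12390 bp, from 7414315 to 7426704, in which replicate 2 had its highest peak of the chain. Of the 16 members, both replicates marked 5, only replicate 1 marked 5, only replicate 2 marked another 5, and 1 was marked by neither.

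**Figure D4:**
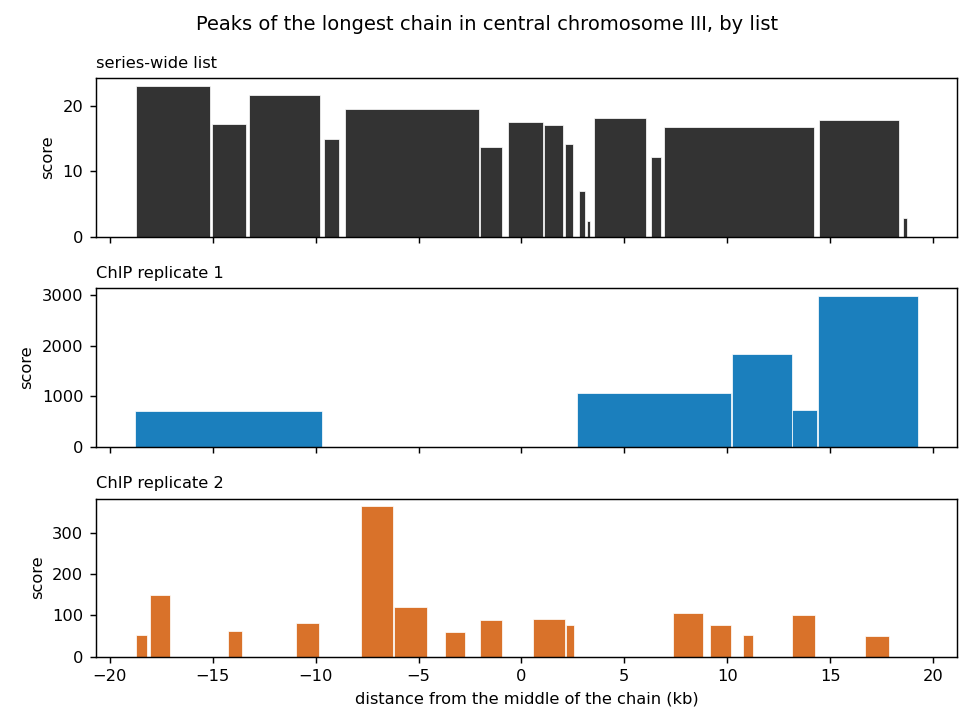
Score (vertical axis, a separate scale for each list) of the peaks in the longest chain against distance from the middle of the chain in kb, with each bar as wide as its peak, for the series-wide list and both ChIP replicates. Replicate 1 is empty for 12390 bp in the middle, where replicate 2 has its highest peak, at 364.96.

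Just to the right of the chain, after a gap of over 1000 bp, lay a member from 7444289 to 7448120 with a series-wide score of 43.04. Here the order of the replicates was turned round, with a score of 627.56 in replicate 1 and 3100 in replicate 2. Further on, the window from 7.5 to 7.6 Mb held only 2 members. One of them, from 7594613 to 7597220 with a series-wide score of 36.65, was the highest-scoring central peak of replicate 2, at 3160.18, above 99.9% of its list. The same site scored 174.12 in replicate 1, above 54.4% of that list.

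Across the 217 pairs of overlapping central peaks, Spearman's rho between the replicate scores was 0.65 and Pearson's r of their log10 values was 0.66, against 0.67 and 0.70 over 2547 pairs of the nuclear genome. These are descriptions across peaks that share their libraries, and a wide peak can enter several pairs. The places of the paired peaks in their lists differed by a median of 15.5 percentage points in central III and 15.9 over the genome, and by more than 30 points in 61 pairs (28.1%, against 26.0%).

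Of the 415 central peaks of replicate 1, 9 stood at 3100 or above, against 236 of its 5552 nuclear peaks. In replicate 2 it was 9 of 250, against 228 of 2886. Of the 13 pairs in which a replicate reached 3100 or more, 5 did so in both replicates, 4 in replicate 1 only and 4 in replicate 2 only. The same split over the genome is not given here. The 4 pairs of replicate 1 scored between 1328.50 and 2550.15 in replicate 2, so both lists ranked them high. Among the 4 of replicate 2, the site at 3334301 scored 2966.48 in replicate 1. The other 3 did not rank as high there. They were the 2 sites already described, which begin at 7444226 and 7594567 in replicate 2, and a site of 5602 bp in replicate 1, from 5353009 to 5358610, with scores of 84.19 in replicate 1 and 3100 in replicate 2. All 3 were wider than 2000 bp in both replicates, and the best-scoring series-wide peak at each scored between 36.60 and 43.04. At the sites from 5353009 and 7444226 the replicate peaks also met a further series-wide peak each, with scores of 34.94 and 11.16.

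**Figure D5:**
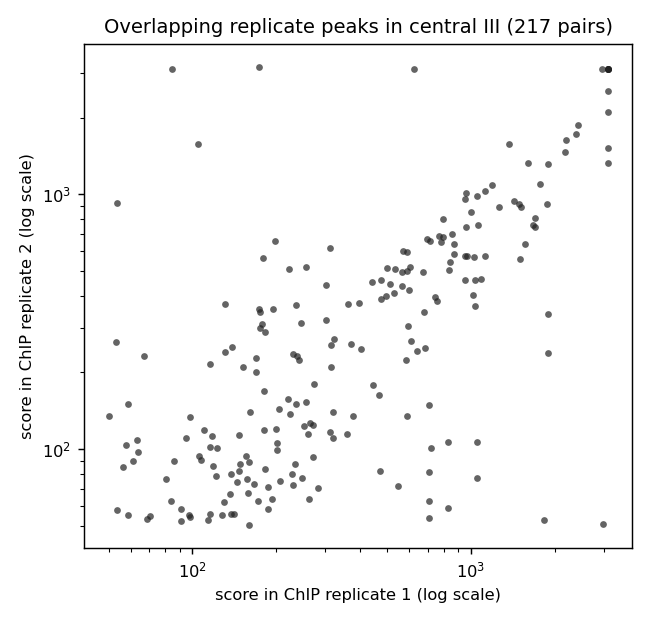
Score in ChIP replicate 2 (vertical axis, log scale) against score in ChIP replicate 1 (horizontal axis, log scale) for the 217 pairs of overlapping peaks in central III. The scores had a Spearman rho of 0.65, and 3 pairs at 3100 or above in replicate 2 stand at 84.19, 174.12 and 627.56 in replicate 1.

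Some strong replicate peaks had no partner at all. In replicate 2, neighbouring peaks from 10224195 to 10225962 and from 10225972 to 10227834 scored 1815.40 and 1053.52, above 89.1% and 84.1% of its list, and replicate 1 had no peak there. The series-wide list scored the sites 42.25 and 12.23. In replicate 1 the strongest unmatched peak ran from 6998260 to 7000726, with a score of 939.39, above 88.0% of its list, and the series-wide list scored it 19.04. None of the 205 unmatched central peaks of replicate 1, and none of the 37 of replicate 2, was among the highest 10% of its list, against 32 and 10 of the matched ones. The same counts over the genome are not given here, so this cannot be called particular to central III.

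The members found in a single replicate had modest series-wide scores. The highest of those in replicate 1 alone, from 3234468 to 3234772, scored 25.34 in the series-wide list and 231.68 in replicate 1. The highest in replicate 2 alone, from 9411810 to 9412186, scored 47.73 in the series-wide list and 443.00 in replicate 2. The highest of the members found in neither, from 3165888 to 3166070, scored 15.82 and was 183 bp wide. A missing peak in a replicate list says only that it did not pass the caller's threshold there, since read depth is unknown.

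The score levels of central III lay closer to those of the whole genome than to those of the left end. The median series-wide score of the members was 7.54 (interquartile range 4.70 to 16.30; 95% interval of the median 6.72 to 8.42), against 13.05 at the left end of III, 7.37 at the right end, 7.45 in the other centres together and 7.86 over the nuclear genome. In replicate 1 the central median was 159.6, against 213.1 at the left end and 150.2 at the right end. In replicate 2 it was 209.7, against 235.5 at the left end and 139.5 at the right end. Median widths hardly differed between the regions in the series-wide list, at 283 bp in the centre, 288 bp at the left end and 291 bp at the right end. Score differences between regions were not tested.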

How the data were processed

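The data were 3 deposited peak lists, 1 for each ZIM-1 ChIP replicate and 1 for the whole series, in WormBase WS220 coordinates, per the file headers. BWA and ce10 are the aligner and build in the submitters' processing notes. The source column of the deposited lists names MACS for the replicates and MACS v2 for the series. The score is the authors' deposited value per peak. Peak caller settings, the control and any pooling of reads for the series-wide list are not given in the sources used here.

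Everything else was computed with Python 3.11.15, numpy 2.4.6, pandas 2.3.3 and scipy 1.17.1, and figures with matplotlib 3.10.9. Midpoints were whole-number means of first and last base, and the length of a chromosome was the last base of its last peak in any list. The mitochondrial genome was left out. Peaks were called shared from 1 bp of overlap. Densities have exact Poisson intervals and shares exact Clopper-Pearson intervals, at 95%. Central III was compared with the rest of III by an exact binomial test, and windows of 100 kb were tested by an exact Poisson test. Both were tested on simulated lists in which peaks were placed independently. The peaks of the data cluster, so those lists do not show how the tests behave on them. The settings varied were the overlap, the score threshold (the higher-scoring 50%), single replicates, other borders, other window sizes and other backgrounds. Named peaks were the 10 highest and 3 widest members, the highest of each class of recurrence and those at the borders; wide, tied and unlike pairs of replicate peaks were added after their values were seen. The members, tests and named sites were chosen with earlier results of these data known. No sequence or gene is given because no genome or annotation of build WS220 was used here.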

Additional observations from a re-analysis of the deposited data

How the results depend on the processing

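No paired analysis was possible because none of the 3 peak lists holds values of the input group, which left the numbered ChIP libraries without a partner. The density of central III stayed below that of the rest of III, with p under 0.05, in each of the 9 alternatives that had a test, 3 of them added after seeing the data, with ratios between 0.47 and 0.78; counted as covered bases per Mb, which had no test, the ratio was 0.53. Of the members, 21.4% were found in both replicates under an overlap of at least 50% of each peak, and 53.9% when weak peaks were left out by taking the higher-scoring 50% alone; with 1 replicate left out, the share found in the other was 32.3% without replicate 1 and 53.7% without replicate 2. It stayed within its interval with borders at 2 or 4 Mb, without the longest chain and without the first 500 kb; the last 2 settings were added after seeing the data. The share of replicate 2 peaks found in replicate 1 was 72.4% under the stricter overlap. The median score was 36.8 among members found in both replicates and between 6.88 and 8.11 with the other borders. The number of dense windows, 4 of 78, was 4 of the 156 windows of 50 kb and 2 of the 39 windows of 200 kb. It was 9 against the mean of the centre itself, which is lower. Against the negative binomial background it was 0, with 0 of 1005 windows called over the genome, so that setting decides nothing about the central windows. In replicates 1 and 2 it was 0 and 1, against 4.68% and 3.58% of windows over the genome. Among peaks found in both it was 0, and in the higher-scoring 50% it was 2. For the other settings no share over the genome is given here, so those counts have no background. Since read depth is unknown, a peak missing from a list may have been missed.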
